A study of Mus musculus with 6 samples.

Results

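In the cochlea of noise-exposed mice, 168 named genes had a higher value in each of 3 animals treated with mesenchymal stromal cells (MSC) than in any of 3 animals with sound trauma only. They were chosen from 41096 genes by the values themselves. A gene was taken when all 6 of its scaled counts were at least 20 and its lowest value in the MSC treated animals lay above its highest value in the sound trauma animals. A scaled count is the number of reads on the gene multiplied by 1 factor per library. Of the 13763 genes with every value at least 20, 577 (4.19%) met this inequality, and 372 (2.7%) met the opposite one. The authors had listed 197 of the 577 as changed, all as up-regulated, and 187 of these carried a symbol. The 19 genes whose symbols begin with 1 of 23 prefixes of large gene families and similar groups (Slc, Abc, Kcn, Zfp, Col, Itg, Rab and others) were set aside, which left the 168. As the choice used the contrast between the groups, the levels and differences of these genes are a description and carry no test. Without specimen 10 of the sound trauma group, 670 genes would have met the rule, and without specimen 13 of the MSC treated group 363 would have, each including all 168.

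The data are RNA-seq of total RNA from the left cochlea of C57BL/6 mice (written C56Bl/6 in the labels), which the paper describes as young females. All 6 animals were exposed to narrow band noise at 16 kHz. Specimens 6, 8 and 10 had sound trauma only by the labels, although the methods describe an injection of artificial perilymph into the control ears. Specimens 13, 18 and 20 received human MSC from the Wharton's jelly of the umbilical cord, delivered to the fluid of the same ear after the noise. The labels place the RNA at 2 days after treatment, whereas the methods of the paper give a later time. The injected cells were human and the reads were assigned to a mouse genome, so transcripts of the graft were not measured as such, and no library came from animals without noise or with cells but no noise.

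The cochlea holds sensory hair cells and supporting cells, spiral ganglion neurons, fibrocytes of the lateral wall, vessels and resident macrophages, and it lies within bone that contains marrow. Loud sound damages hair cells and their synapses, and blood-borne leukocytes then enter the tissue. MSC are connective tissue stromal cells that secrete growth factors and cytokines and are studied for their effects on immune cells and on injured tissue.

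Reads on genes were between 9170390 and 11030863 per library. In the whole table, 0 of 15970 genes passed an adjusted p of 0.05 in limma-trend (lowest adjusted p 0.954), and edgeR's quasi-likelihood test, DESeq2 and limma-voom also called 0. At an unadjusted p under 0.05, limma-trend had 269 genes higher in MSC treated animals (1.68%) and 107 lower (0.67%), edgeR 259 and 266, DESeq2 249 and 550, and limma-voom 252 and 98. The sound trauma libraries differed from each other in the summed markers of other tissues. Neuron markers summed to 13097, 46567 and 6268 (specimens 6, 8 and 10) against 7088, 8979 and 7437 (specimens 13, 18 and 20). Choroid plexus markers summed to 8145, 5508 and 352 against 303, 409 and 298, and skeletal muscle markers to 793887, 32477 and 181791 against 446830, 66070 and 73402. Specimens 6 and 8 thus carried high levels of choroid plexus RNA that specimen 10 and the MSC treated animals did not carry. Bulk RNA does not tell a larger number of cells of a type from more RNA per cell.

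The 168 genes were higher by modest amounts. The mean of the MSC treated animals was 1.06 to 2.12 times that of the sound trauma animals, with a median of 1.27. On the log2(scaled count + 1) scale, on which the change of low genes is understated, the difference of the means was 0.09 to 0.97 with a median of 0.36, against 0.00 over all 13763 genes. The ratio of means was above 1.5 in 18 genes and above 2 in 1, the neuronal membrane protein gene Vstm5. The gap between the groups, as the lowest MSC treated value over the highest sound trauma value, had a median of 1.046 and was above 1.1 in 37 genes and above 1.2 in 5. For most of the genes the groups were separated by a narrow margin, and for many the margin was no larger than counting error alone. As a description with no test, since the rule asked for a gap, the gap was larger than 1 standard error of counting in 46 of the 168 genes and larger than 1.96 standard errors in 4, which were Cstb, Degs1, Exoc5 and Lrrc58.

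**Figure D1:**
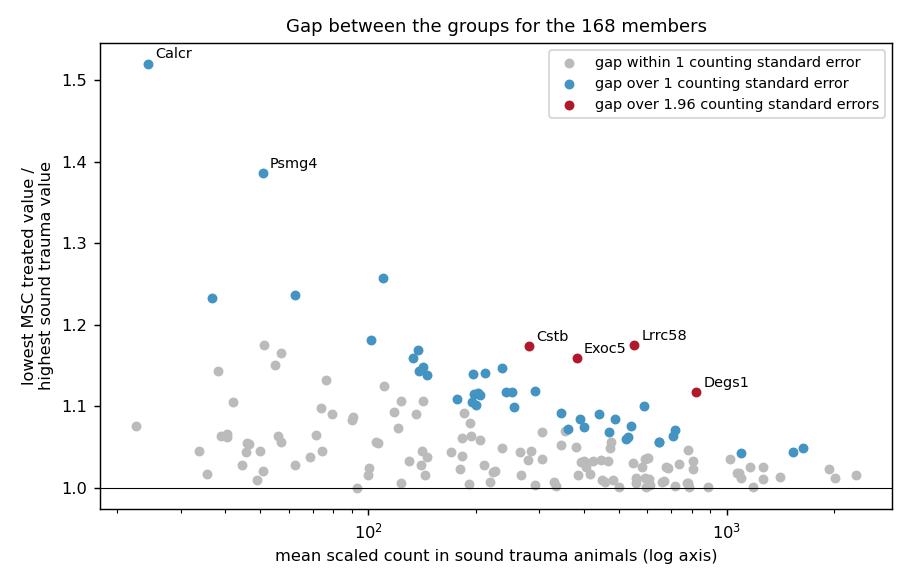
Each of the 168 genes by its mean scaled count in the sound trauma animals (log axis) and the ratio of its lowest MSC treated value to its highest sound trauma value, coloured by the size of the gap against its counting error. Most genes lie between 1 and 1.1, Calcr stands highest at 1.52, and the 4 genes with a gap larger than 1.96 standard errors are labelled.

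The position of the sound trauma libraries within these genes was uneven. As a log2 difference from the MSC treated mean, the median over the 168 genes was -0.44 in specimen 6, -0.38 in specimen 8 and -0.19 in specimen 10. Specimen 10, the library with little choroid plexus RNA, was thus the closest to the MSC treated animals. It held the highest of the 3 sound trauma values in 121 of the 168 genes (72.0%), specimen 6 in 26 and specimen 8 in 21. Over all 13763 genes specimen 10 held the highest value in 36.0%, and over the 577 genes of any name in 68.6%. Specimen 10 was the lowest of the sound trauma libraries in 8 genes, namely Ap1s2, Calcr, Cops2, Dclk3, Paox, Sco1, Sesn1 and Stk38l. With specimen 10 left out, the difference was larger in 147 of the 168 genes. These are the genes in which specimen 10 lay above the mean of specimens 6 and 8, and they were not counted over all genes. The MSC treated medians were -0.01, 0.01 and -0.01, measured from the mean of these libraries themselves. Specimens 13, 18 and 20 held the highest MSC treated value for 53, 60 and 55 of the genes (31.5%, 35.7% and 32.7%). Over all 13763 genes the shares were 34.8%, 29.5% and 35.7%.

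**Figure D2:**
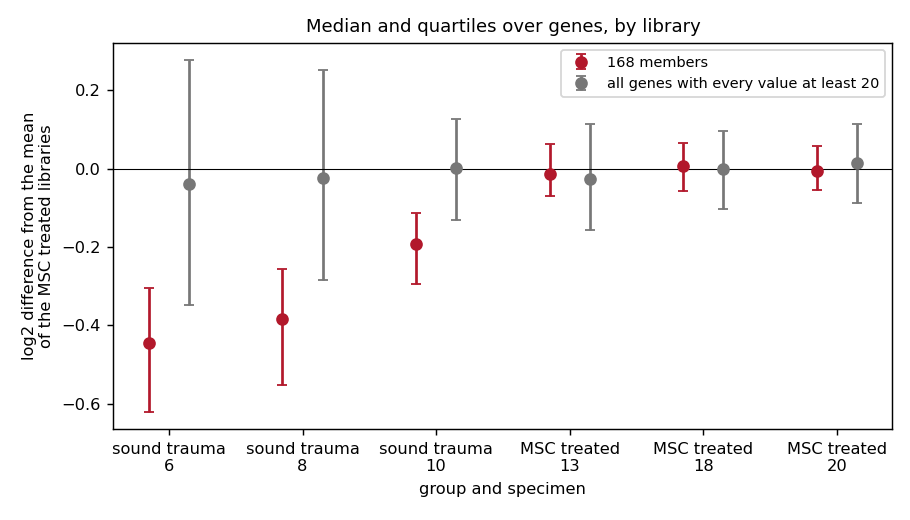
Median and quartiles over genes of the log2 difference of each library from the MSC treated mean, for the 168 genes (red) and for all 13763 genes with every value at least 20 (grey). The sound trauma libraries lie at -0.44, -0.38 and -0.19 for the 168 genes, and all libraries lie close to 0 for all genes.

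**Figure D3:**
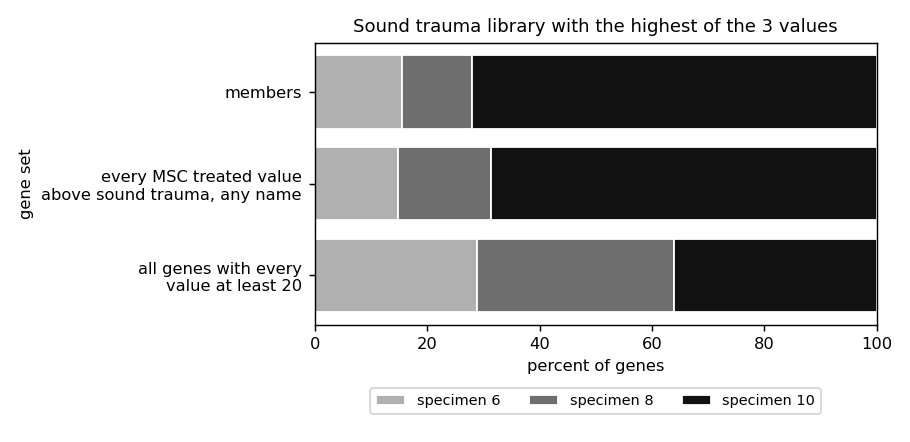
Percent of genes in which specimen 6, 8 or 10 held the highest of the 3 sound trauma values, for the 168 genes, the 577 genes that met the inequality under any name, and all 13763 genes. Specimen 10 takes 72.0%, 68.6% and 36.0%.

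The spread within a group was smaller in the MSC treated animals, as it was over the whole table. The coefficient of variation of the 168 genes had a median of 13.2% in the sound trauma group and 6.24% in the MSC treated group, and it was lower in the MSC treated group in 129 genes (76.8%). Over all 13763 genes the medians were 20.6% and 11.7%, and the MSC treated group was the less variable in 79.2%. A rule that asks for 2 separate groups favours genes with little spread in either, so nothing is read from the lower values of the 168 genes.

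The markers of blood and connective tissue cells that could be found had higher means in the MSC treated animals. Only markers on the authors' lists of changed genes could be found, so the others were left out and the direction is no independent observation. Of these markers only Cebpe was among the 168 genes. Of 8 macrophage markers 6 could be found by symbol, and their sum was 1953, 2330 and 4310 under sound trauma against 3705, 3679 and 3794 with MSC, in the same order of specimens. The sum for 6 of 10 markers of neutrophils and their precursors was 9621, 12322 and 18232 against 14218, 16891 and 15528. That for 6 fibroblast markers was 60137, 69343 and 114554 against 75711, 94298 and 102547. Each was mostly 1 gene, Mpo (6244, 8052 and 12332 against 9243, 11074 and 10172) and Col1a2 (52038, 62243 and 103767 against 65133, 85171 and 91941). In Dcn, Lum, Postn and Fap specimen 10 lay below the highest MSC treated value, unlike in Col1a2 and Pdgfra. For 6 of 7 lymphocyte markers the sum was 596, 1000.0 and 1428 against 1075, 1501 and 1622, for 2 of 7 erythroid markers 357, 441 and 757 against 502, 821 and 704, and for 3 of 5 bone markers 3520, 3787 and 7024 against 4345, 6853 and 6884. In each of these sums the low libraries were specimens 6 and 8, and specimen 10 overlapped the MSC treated group or lay above it. The sum for 4 of 6 hair cell markers was 387, 387 and 943 against 725, 881 and 685, again with specimen 10 the highest. Myelin markers (4 of 6) summed to 20149, 28078 and 9282 against 8437, 20416 and 11134, and keratinocyte markers (3 of 4) to 49.8, 1186 and 33.9 against 209, 39.8 and 34.0. The part of these cell types in the values of the 168 genes was not tested.

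Under other scalings of the libraries the set did not keep all of its members. All 168 genes had a higher mean log2 value in the MSC treated animals under scaling by total counts, by upper quartile and by median ratio. This direction could hardly have changed, because a rescaling moves the differences of all genes nearly alike, so nothing is read from it. The median log2 difference of all genes was 0.08, 0.03 and -0.01 under these scalings, against 0.00 as reported. The smallest difference among the 168 genes was 0.09. The inequality itself held under all 3 of these scalings for 112 genes and under none of them for 2, the matrix gene Fbln1 and the lysosomal carboxypeptidase gene Scpep1. Among the genes given below with all 6 values, 9130024F11Rik, Adcy3, Amica1, Baz1a, Cast, Chp1, Cops2, Cxadr, Fbln1, Fuca1, Gbp8, Ifi27, Mtpn, Nlk, Pik3cb, Ranbp2, Reck, Rock1, Rpl39, Scpep1, Stat3, Thbd and Wls failed it under at least 1 of these scalings.

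In 7 genes the gap between the groups was larger than the range within either group, against 27 of the 13763 genes (4.17% and 0.196%), a count that the rule favours. The first was Calcr (MGP_C57BL6NJ_G0030859), which encodes the receptor for the hormone calcitonin. Calcr had scaled counts of 26.7, 23.9 and 22.3 (sound trauma specimens 6, 8 and 10) and of 40.5, 46.98 and 44.7 (MSC treated specimens 13, 18 and 20), the order in which all values below are given. Its group means were 24.3 ± 2.19 and 44.05 ± 3.27 (SD, n = 3 each), a log2 difference of 0.83 with a standard error of 0.24. It was the most widely separated of the 168 genes, although its counts were among the lowest, and specimen 10 was its lowest library. Psmg4 (MGP_C57BL6NJ_G0020832), a chaperone for the assembly of the proteasome, had 49.8, 50.7 and 51.8 against 75.8, 75.6 and 71.8. Its groups were each tight, with coefficients of variation of 1.96% and 3.01%, and lay 1.39 times apart at their nearest values. Cstb (MGP_C57BL6NJ_G0017818), which encodes cystatin B, an inhibitor of lysosomal cysteine proteases, had 261, 281 and 300.2 against 365, 369.7 and 352, or means of 281 ± 19.7 and 362 ± 8.92. Cstb was also among the highest of the 168 genes per length, with mean FPKM of 46.2 and 62.3 in the authors' columns.

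The other genes with this wide separation acted in lipid metabolism, sugar metabolism and secretion. Degs1 (MGP_C57BL6NJ_G0017292), the desaturase that forms ceramide from dihydroceramide, had 804, 816 and 848 against 951, 958 and 947. Its difference was small, 0.21 on the log2 scale, but its MSC treated values had a coefficient of variation of 0.569%. Pafah2 (MGP_C57BL6NJ_G0029350), a hydrolase of oxidised phospholipids and platelet-activating factor, had 203, 204 and 211 against 235, 252 and 254. Galk2 (MGP_C57BL6NJ_G0026856), a sugar kinase, had 132, 143 and 139 against 179, 171 and 164, and Exoc5 (MGP_C57BL6NJ_G0021615), a subunit of the exocyst that tethers vesicles to the plasma membrane, had 369, 398 and 379 against 499, 476 and 461. In these 4 genes the sound trauma libraries lay close together, with specimen 6 the lowest in each.

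The members with the largest differences were genes of low count, whose libraries often lay far apart within a group. Dchs2, a large cadherin of the dachsous type, had 25.5, 47.8 and 48.2 against 95.6, 92.9 and 51.4. Its difference of 0.97 (standard error 0.38) was the largest on the log2 scale, yet specimen 20 lay close to the sound trauma values and specimen 6 well below them. Vstm5 had 23.2, 21.99 and 22.3 against 24.9, 48.001 and 69.9, so its 2.12-fold ratio of means came from specimens 18 and 20, and specimen 13 was within 1.08 times of the highest sound trauma value. Ptger3, a receptor for prostaglandin E2, had 35.9, 54.5 and 77.7 against 127, 82.7 and 104. The transcript 9130024F11Rik had 35.9, 59.3 and 92.9 against 95.6, 101 and 108, where specimen 10 all but reached the MSC treated values. AA467197, which encodes a small mitochondrial protein, had 26.7, 37.3 and 46.5 against 66.5, 58.2 and 57.3 and Rhbdl2, a rhomboid protease of the membrane, 48.7, 33.5 and 57.2 against 60.3, 79.7 and 85.4. Both were separated without overlap by the rule, with AA467197 the wider at a gap of 1.23 times.

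Among the genes with a wide gap and a more even pattern was Nt5e (CD73), the ectoenzyme that forms adenosine from AMP. Nt5e had 105, 112 and 113 against 173, 146 and 143, a gap of 1.26 times. Wnt6, a secreted Wnt ligand, had 56.8, 54.5 and 76.8 against 95.6, 94.98 and 99.98, and Tfcp2l1, a transcription factor of ductal epithelia, 95.03, 97.5 and 113 against 133, 166 and 139.8. In both, specimen 10 was the highest sound trauma library, and the MSC treated values of Wnt6 were close together. Asah2, a ceramidase active at neutral pH, had 145, 112 and 157 against 184, 215 and 190.3, and the kinase gene Dclk3 52.2, 51.6 and 50.03 against 61.3, 62.3 and 76.7. Lrrc58, a gene for a leucine-rich repeat protein, had 467, 584 and 605 against 716, 739 and 711. Its sound trauma values spread more than its MSC treated values because specimen 6 was low, and its gap was 1.17 times.

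**Figure D4:**
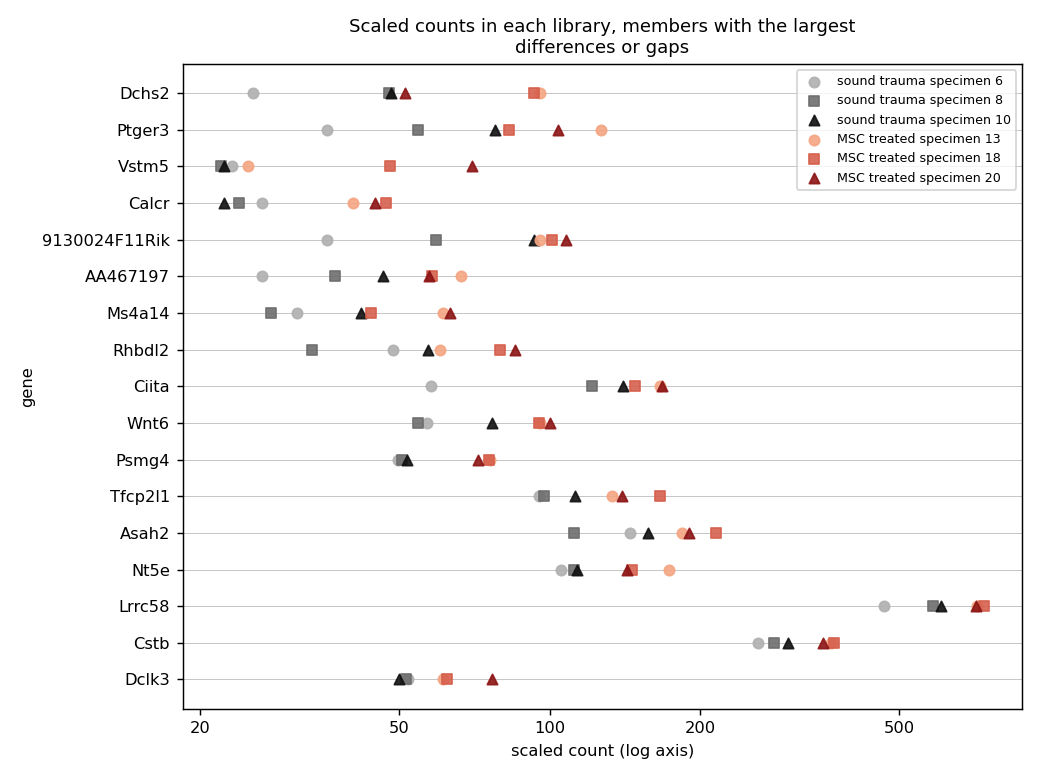
Scaled counts in each of the 6 libraries (log axis) for the reported genes among the 10 largest log2 differences and the 10 largest gaps, ordered by difference. All MSC treated points (red) lie to the right of all sound trauma points (grey to black) in each row, by as much as 1.52 times in Calcr and by as little as 1.03 times in 9130024F11Rik.

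By function, 100 of the 168 genes fell into at least 1 of 15 gene lists and 68 into none. Symbols came only from the authors' lists of changed genes, so list genes without a name there could not be found and were left out. A name was found for 27 of 59 genes of the lysosome list, 10 of 21 cell death genes and 37 of 46 interferon and innate immunity genes. For every other list the share was larger. Nearly all of the named genes were listed by the authors as up-regulated, so most had the higher mean in MSC treated animals by that choice. The lists were drawn up with earlier results of these data known, and most held no gene that the authors listed as down-regulated. All 70 genes of the leukocyte signalling list, for example, were listed as up-regulated. Member counts by list therefore say nothing about which functions changed. The counts below give how many of the named list genes with every value at least 20 met the rule. Among all 881 genes of the authors' up-regulated list with a kept symbol and every value at least 20, 168 (19.1%) did so.

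The lysosome list contributed 7 members of 27, among them Cstb and Sumf1, which act on lysosomal enzymes. Differences lay between 0.24 and 0.42, with a median of 0.28 on the log2 scale. Lysosomes degrade material taken up by endocytosis and phagocytosis, and many of their genes are under control of the transcription factors TFEB and TFE3, which bind the sequence CACGTG with defined flanks. Mfsd1, a transporter of the lysosomal membrane, had 477, 468 and 518 against 632, 581 and 562. Sumf1, which activates the sulfatases, had 341, 321 and 375 against 405, 425 and 395, and Tmem104, a membrane protein of lysosomes, 372, 341 and 426 against 448, 459.6 and 448. The groups of these 3 genes were separated by 1.051 to 1.085 times at their nearest values. Lipa, the acid lipase that frees cholesterol from lipoproteins, had the largest difference of the list, with 529.6, 459 and 661 against 725, 681 and 779. The fucosidase Fuca1 (612, 625 and 771 against 785, 833 and 778) and Scpep1 (593, 542 and 705 against 719.97, 797 and 708) were separated by 1.008 and 1.004 times, with specimen 10 just below the MSC treated values.

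The promoter of Mfsd1 is shown because it holds 5 copies of CACGTG within 100 bases. These are the bases before the start of the gene in the RefSeq promoter table (GRCm38.p6, chr3:67582668-67582767, plus strand), with the copies in capitals.
Mfsd1: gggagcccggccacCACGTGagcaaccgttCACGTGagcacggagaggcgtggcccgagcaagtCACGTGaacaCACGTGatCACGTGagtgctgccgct
Promoters of 250 bases before to 50 bases after the start were present for 135 of the 168 genes, 170 promoters in all. CACGTG on either strand was in 14.1% of these and in 7.15% of all 32851 promoters. In 3001 promoters of other genes named by the authors, up-regulated or down-regulated, with every value at least 20, the share was 8.63%. These shares are a description, and a match of letters is not a binding site.

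Another 7 motifs were searched on both strands. The ETS core CCGGAAG was in 16.5% of member promoters, 9.73% of those of other named genes and 8.86% of all, and the AP-1 sequence TGACTCA in 7.06%, 4.30% and 5.202%. The shares were 28.2%, 28.1% and 20.8% for TGACG of the CRE, 32.9%, 34.9% and 37.4% for CCAAT, 7.06%, 7.16% and 13.6% for TATAAA, 15.9%, 14.1% and 13.6% for GAGGAAG of PU.1, and 62.4%, 58.9% and 35.7% for GGGCGG of Sp1. The median GC content was 61.8% in member promoters, 61.0% in those of other named genes and 52.7% in all, so base composition differed between the member and all-gene promoters along with the GC-rich motifs.

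Genes of glycan synthesis and the secretory pathway contributed 8 members of 41 (differences 0.22 to 0.63, median 0.36). Mgat4a, which branches N-glycans in the Golgi, had 61.4, 78.4 and 82.2 against 95.6, 116 and 90.3. Chsy1, a synthase of chondroitin sulfate chains, had 339.6, 406 and 423 against 458, 480.01 and 515, and Zmpste24, the protease that matures lamin A, 511, 471 and 587 against 622, 672 and 656. In these 3 genes specimen 10 was the highest sound trauma library, and the gap was 1.06 times or more. B3gnt2, which extends poly-lactosamine chains, had the largest difference of the list, with 33.6, 41.1 and 41.99 against 65.5, 75.6 and 44.7. Specimen 20 was the low library of its group there and lay next to the sound trauma values. The remaining members were the polylactosamine enzyme gene B3gnt8, the mannosidase Man2a1, the polysialyltransferase St8sia4 and the Golgi membrane protein gene Tmem165, with differences of 0.41, 0.25, 0.49 and 0.22.

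Membrane traffic was represented by 13 members of 44, with differences between 0.15 and 0.44. Besides Exoc5, Cav2, a partner of caveolin in the membrane pits of endothelium and other cells, was the most widely separated, with 206, 166 and 216 against 295, 254 and 247. Atp11a, a flippase of phosphatidylserine, had 1511, 1634 and 1741 against 1842, 1827 and 1935, and Arfgef2, an exchange factor for ARF proteins of the Golgi, 1079, 1055 and 1154 against 1233, 1215 and 1204. Both were abundant genes whose libraries differed by small fractions, with log2 differences of 0.20 and 0.15. The others were Ap1s2, Arap1, Cyth3, Dnajc13, Dynlt3, Osbpl9, Reep3, Snx18 and Wdfy1, which lay between 0.15 for the lipid transfer protein gene Osbpl9 and 0.39 for the ARF exchange factor gene Cyth3.

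The list of kinases, phosphatases and G protein signalling had the most members, 14 of 40 (differences 0.19 to 0.49, median 0.33). Rgs14, a regulator that ends G protein signals, had 162, 227 and 248 against 287, 309 and 283. Tesk2, a kinase that phosphorylates cofilin, had 187, 166 and 239 against 276, 271 and 266, and Stk38l, a kinase of the NDR family, 204, 187 and 163 against 247, 223 and 227. Stk38l was 1 of the 8 genes in which specimen 10 was the lowest library. Nlk, a kinase that acts on Wnt and Notch signals, had 334, 376 and 350.2 against 402, 469.8 and 460.1. Pik3cb, a catalytic subunit of PI3 kinase, had 331, 452 and 434 against 471, 525 and 464. Its log2 difference was 0.27. Others were the tyrosine kinases Abl2 (0.22) and Tec (0.45), the protein kinases Prkd3 (0.33) and Prkx (0.28), Rgs2 (0.33), the G protein subunit Gnai3 (0.28), the adenylyl cyclase Adcy3 (0.30) and Ppp1r3b, which directs protein phosphatase to glycogen (0.44).

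Actin and adhesion genes gave 8 members of 58, all with small differences (0.20 to 0.31, median 0.22). Raph1 (lamellipodin), which promotes actin growth at the cell edge, had 646, 616 and 682 against 866, 720.01 and 745. Capn2, the large subunit of m-calpain, had 1639.9, 1438 and 1525 against 1778, 1713 and 1856, and Cast, which encodes the calpain inhibitor calpastatin, 989, 696 and 978 against 1150.1, 1022 and 990.1. Cast was separated by 1.002 times only, and specimens 6 and 20 were almost equal. The gene body of Cast shares 840 bases with that of its neighbour Erap1, also a member, so reads on the shared stretch could have been given to either gene. Ptpn12, a phosphatase of focal adhesion proteins, had 508, 604 and 625 against 688, 669.97 and 642 and the Rac effector kinase Pak2 979, 1113 and 1161 against 1292, 1245 and 1181. Rock1, a kinase that acts on myosin, had 455, 598 and 623 against 626, 723 and 715 and Mtpn, an inhibitor of actin capping, 1161, 1556 and 1512 against 1576, 1624 and 1673. In Ptpn12, Rock1 and Mtpn the low library was specimen 6. Cttnbp2nl, a cortactin-binding protein gene, differed by 0.21.

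Leukocyte signalling genes contributed 8 members of 69 (differences 0.27 to 0.60, median 0.42). Gpr183, an oxysterol receptor that guides lymphocytes and dendritic cells, had 53.3, 50.7 and 60.8 against 77.9, 75.6 and 69.9. Ptafr, the receptor for platelet-activating factor, had 163, 159 and 209 against 262, 232 and 234. The adaptor Lat2 of B cells and mast cells had 96.2, 103 and 163 against 176, 178 and 184, and the adaptor Gab1 of growth factor receptors 709, 657 and 792 against 848, 867 and 875. Specimen 10 was the highest of the sound trauma libraries in all 4, and in Lat2 it lay far above specimens 6 and 8. Specimen 10 was also the highest sound trauma library in the summed macrophage and neutrophil markers above, but there it lay above the MSC treated group too. In those sums specimen 6 was the lowest library, as it was in Lat2, whereas in Gpr183, Ptafr and Gab1 specimen 8 was. The part of these cell types in the values was not tested. Lrrc25, a receptor-like protein of myeloid cells, and Lpar6, a receptor for lysophosphatidic acid, differed by 0.41 and 0.40. Amica1, a junctional adhesion protein of leukocytes, had 63.7, 108 and 107 against 108, 148 and 132, and its groups were separated by 1.0001 times.

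Outside the leukocyte list, Ms4a14, of the membrane-spanning 4A family, had 31.3, 27.7 and 41.99 against 61.3, 43.9 and 63.1. Ms4a14 was low in specimen 18, which lay next to specimen 10. Cebpe, a transcription factor of maturing granulocytes and itself on the neutrophil marker list, had 286, 339 and 292 against 419.7, 400.3 and 351, and Serpinb1a, an inhibitor of neutrophil proteases, 424, 596 and 607 against 748, 653 and 779. Osm, which encodes the cytokine oncostatin M, had 24.3, 40.2 and 41.99 against 67.5, 43.9 and 42.7, and was among the lowest in count of all members. In Osm, specimens 18 and 20 lay only just above specimens 8 and 10.

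The interferon and innate immunity list gave 8 members of 37, with differences between 0.11 and 0.68. Ciita, the master regulator of MHC class II genes, had 57.9, 121 and 140.3 against 166, 148 and 168. Specimen 6 was far below the other sound trauma libraries in this gene, and specimen 10 was close to the MSC treated values. Tirap, an adaptor of Toll-like receptors, had 269, 213 and 273 against 305, 319 and 309.7. The guanylate-binding protein gene Gbp8, of a family with similar copies, had 55.6, 38.2 and 39.3 against 77.9, 57.2 and 70.9, and the interferon-inducible gene Ifi27 752, 557 and 722 against 784, 809 and 772. In Gbp8 and Ifi27 specimen 6 was the highest sound trauma library. Stat3, the transcription factor of interleukin 6 type cytokines such as oncostatin M, had 2022, 1763 and 2024 against 2090.3, 2070.2 and 2080.2, a log2 difference of 0.11. Erap1, which trims peptides for MHC class I, the transcription factor Irf2 and Zc3hav1l differed by 0.27, 0.19 and 0.43.

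Of the cell death genes, 3 of 10 were members. Mcl1, an anti-apoptotic member of the Bcl2 family, was the highest of the 168 genes per length, at mean FPKM of 66.0 and 79.2 in the authors' columns, and had 2363, 2051 and 2494 against 2671, 2676 and 2535. Casp6, an executioner caspase, had 98.5, 131 and 140.3 against 157, 158 and 155. Gsdmd, whose cleaved product forms the pores of pyroptosis, had 246, 254 and 339 against 368, 351 and 404. Genes that prevent and genes that carry out cell death were thus both among the members, at log2 differences of 0.19, 0.36 and 0.43.

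Growth factor signalling gave 6 members of 46, with a median difference of 0.61. Over all 48 named genes of the list the median was 0.35, against 0.41 for leukocyte signalling. The higher value thus belongs to the members that the rule picked. The ligands were Wnt6, described above, and Inhba, the activin subunit, with 33.6, 37.3 and 43.8 against 67.5, 50.04 and 64.1. The receptors were Met, the receptor of hepatocyte growth factor, with 209.8, 175 and 248 against 369.9, 339 and 255, and its relative Mst1r (Ron), the receptor of macrophage-stimulating protein, with 187, 199 and 223 against 249.3, 296 and 254. Met was high in specimens 13 and 18, whereas specimen 20 lay within 1.03 times of specimen 10. Wls, which carries Wnt proteins to the cell surface, had 695, 753 and 974 against 1006, 1063 and 1008. Lgr5, a receptor for R-spondins that strengthens Wnt signals and marks a class of cochlear supporting cells, had 82.3, 141 and 166 against 216, 172 and 192. In both genes specimen 6 was the lowest sound trauma library and specimen 10 the highest, next to the MSC treated values.

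Met and Cav2 lie near each other in the mouse genome with 1 protein-coding gene between them, and Mdfic, another member, has 2 protein-coding genes between it and Cav2. Their promoters are shown because each holds 1 AP-1 sequence, TGACTCA or its reverse complement, in capitals within the 100 bases before the start. The bases are from RefSeq (GRCm38.p6, plus strand), at chr6:17463857-17463956 for Met and chr6:17281085-17281184 for Cav2.
Met: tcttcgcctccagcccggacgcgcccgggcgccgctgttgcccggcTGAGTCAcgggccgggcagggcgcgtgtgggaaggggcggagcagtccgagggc
Cav2: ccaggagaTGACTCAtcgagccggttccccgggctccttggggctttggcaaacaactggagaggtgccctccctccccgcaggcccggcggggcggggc
The AP-1 sequence begins 54 bases before the start in Met and 92 bases before it in Cav2.

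Other members that lie side by side, with no protein-coding gene between them, were Soat1 and Abl2, Erap1 and Cast, and Cops2 and Galk2. Cops2, a subunit of the COP9 signalosome, had 786, 754 and 670.1 against 830.1, 809 and 862, beside the values of Galk2 given above. The starts of Cops2 and Galk2 face away from each other with 26 bases between them in RefSeq (GRCm38.p6, chr2:125859083-125859108, plus strand), which are shown because 1 ETS core, in capitals, lies in this shared stretch.
Cops2 and Galk2: gtCTTCCGGtctctccaggagaagat
The pairs Degs1 and Capn2, Serpinb1a and Serpinb9, and Ptpn12 and Fgl2 had 2 protein-coding genes between them, and Tbc1d10a and Osm had 1.

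Matrix genes other than collagens gave 5 members of 43 (differences 0.25 to 0.38). Plat, tissue plasminogen activator, had 358, 419 and 423 against 479.98, 594 and 455. Crispld2, a secreted protein of mesenchyme, had 523, 681 and 745 against 788, 914 and 815, and Reck, a membrane-bound inhibitor of matrix metalloproteinases, 337, 388 and 429.7 against 436, 481 and 448. The endothelial thrombin receptor Thbd had 692, 537 and 592 against 876, 699.6 and 703, and Fbln1 754, 565 and 837 against 858, 961 and 839. Specimen 10 was the highest sound trauma library in all of these except Thbd, in which specimen 6 was. The summed fibroblast markers were likewise highest in specimen 10, and their part in these values was not tested.

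Genes of transcription and chromatin gave 7 members of 48 (differences 0.21 to 0.53). Ebf3, a helix-loop-helix transcription factor, had 293, 285 and 298 against 395, 334 and 396, and its sound trauma libraries lay close together. Rcor1 (CoREST), which joins histone deacetylase and demethylase to the repressor REST, had 98.5, 141 and 182 against 209, 197 and 187. Baz1a, of the ACF remodelling complex, had 457, 626 and 699 against 750.1, 741 and 708 and Bend4 49.8, 58.3 and 63.4 against 73.8, 100.1 and 66.98. In Rcor1 and Baz1a specimen 6 was far below specimen 10. Arid3b, Nfat5, the factor of osmotic stress, and Ranbp2, a nuclear pore protein, differed by 0.30, 0.22 and 0.21.

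Metabolic enzymes gave 10 members of 44 (differences 0.21 to 0.52, median 0.29), which included Nt5e, Asah2, Galk2, Degs1 and Pafah2. Degs1 makes ceramide and Asah2 cleaves it, and both were higher in the MSC treated animals. The others were Soat1, which esterifies cholesterol, with 586, 571 and 656 against 726, 792 and 679, and Agps, an enzyme of ether lipid synthesis in peroxisomes, with 482, 596 and 599 against 689, 606 and 636. Soat1 and Lipa, which act on cholesterol esters in opposite directions, had log2 differences of 0.28 and 0.42. Adss of purine synthesis, the polyamine oxidase Paox and the sulfotransferase Sult1a1 differed by 0.28, 0.40 and 0.38.

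The remaining lists held few members. Of 16 inner ear genes with every value at least 20, Lgr5 and Ccdc50, a gene of hereditary deafness, met the rule, and Ccdc50 had 793, 775 and 777 against 961, 829 and 876. Of 22 genes of cell cycle and DNA repair, 2 of the Fanconi anaemia pathway did so, Faap24 with 76.5, 75.5 and 85.8 against 93.5, 116 and 105 and Fancl with 42.9, 50.7 and 58.97 against 77.9, 69.4 and 60.2. Of 25 genes of RNA and translation only Rpl39, a ribosomal protein gene for which near-identical copies exist in the genome, was a member, with 276, 239.97 and 281 against 293, 398 and 390.2. Its value in specimen 13 was 1.04 times that in specimen 10.

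The 68 members outside the lists had differences between 0.09 and 0.97 with a median of 0.39. Chp1, a calcium-binding partner of sodium-proton exchangers, was 1 of the 10 members with the highest FPKM and had 1191, 1068 and 1234 against 1272, 1293 and 1266. Its difference of 0.14 was among the smaller ones. The following were named after their values were seen, to show what this group held. Atp7a, the copper pump mutated in Menkes disease, had 111, 141 and 175 against 208, 201 and 203, and Hfe, which governs iron uptake, 216, 148 and 214 against 268, 233 and 233. In Atp7a specimen 10 was the highest sound trauma library, whereas in Hfe specimens 6 and 10 were alike and specimen 8 was low. Clec4a2, a lectin receptor of myeloid cells, had 151, 192 and 256 against 283, 348 and 282, and Mcemp1, expressed by mast cells and other myeloid cells, 159, 288 and 279.6 against 326, 322 and 336. Specimen 6 was the lowest library in both, as it was in the macrophage and neutrophil marker sums. Lrrc55, an accessory subunit of BK potassium channels, had 77.6, 56.4 and 95.6 against 128, 108 and 115, and Rhoj, a small GTPase of endothelium, 527, 342 and 545 against 571, 636 and 581. Cxadr, the coxsackievirus and adenovirus receptor of cell junctions, had 173, 236 and 269.8 against 275, 283 and 288.

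The other members outside the lists, which are named here with no values, were 2310011J03Rik, 5730480H06Rik, Abtb2, Ap5b1, Aspg, Atrnl1, BC021891, Bend5, Btnl9, Chdh, Cmtm6, Corin, Cpne8, Ddn, Dnajc7, Dpep1, Dtx4, Emp2, Fam105a, Fam3c, Fam96a, Fchsd1, Gngt2, Gramd1c, Gstt3, Htatip2, Insc, Itpripl1, Mospd2, Prrg3, Prrg4, Psd4, Rnase4, Scml4, Spsb1 and Tceanc. Each had the pattern set by the rule, and all their differences lay within the range of the 68.

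**Figure D5:**
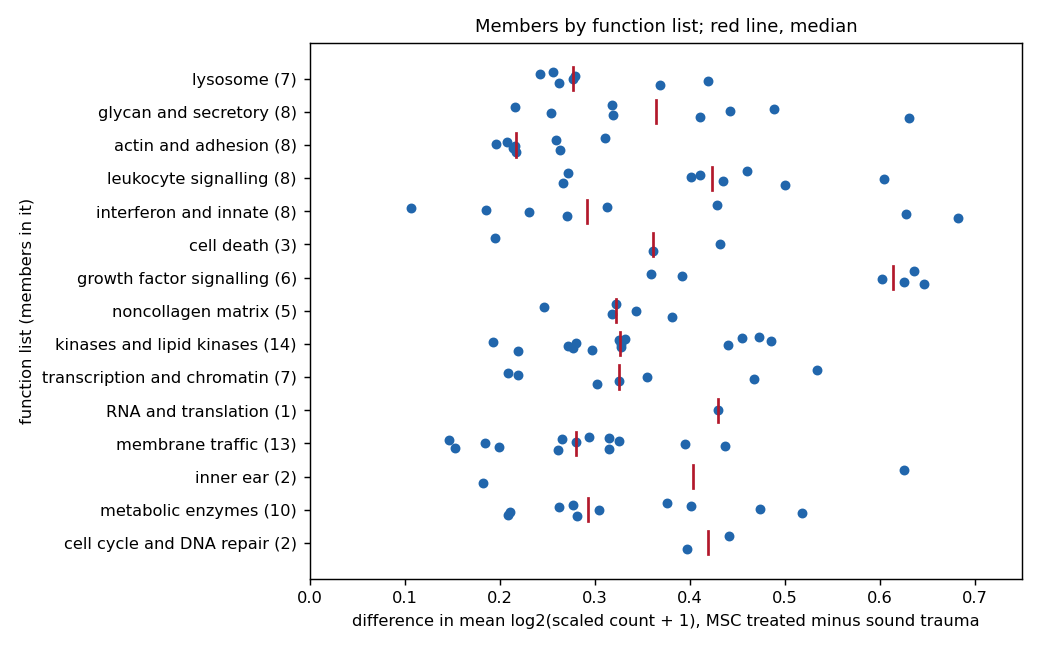
Difference in mean log2(scaled count + 1), MSC treated minus sound trauma, for the members in each of 15 function lists, with the number of members in parentheses and the median as a red line. The median of growth factor signalling is 0.61 over its members and 0.35 over all named genes of the list. The actin and adhesion members lie between 0.20 and 0.31.

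At the edges of the rule, small shifts decided membership. The members with the narrowest gap were Amica1, Adcy3 and Ranbp2. Adcy3 had 365, 557 and 577 against 578, 622 and 607, and Ranbp2 998, 1315 and 1246 against 1381, 1389.98 and 1316. Just outside were Itsn2, a scaffold of endocytosis, with 676, 763 and 893 against 981, 892 and 899.8, Ltb, the cytokine lymphotoxin beta, with 89.2, 161 and 127 against 182, 160.3 and 166, and Tshz2, a zinc finger transcription factor, with 724, 559 and 870.2 against 877, 870.1 and 922. The excluded genes had higher means in the MSC treated group as well, and in each the lowest MSC treated value was just short of the highest sound trauma value. At the floor of 20 the members of lowest count were Vstm5, Calcr and Osm. D730003I15Rik met the inequality but was left out for its low counts, with 25.5, 18.2 and 25.9 against 34.3, 33.7 and 31.1, as was Bbs12 with 19.7, 23.9 and 22.3 against 29.1, 29.6 and 33.97. In all, 17 named genes met the inequality and missed only the floor.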

How the data were processed

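Libraries of total RNA from the left cochlea of 3 sound trauma and 3 MSC treated mice were analysed here, although the paper's methods describe more animals per group. The authors processed the reads with the AIR software against the C57BL/6NJ genome. The counting tool and its use of strand are not given in the sources used here, so reads of overlapping genes could fall to either one. The deposited signal is a read count multiplied by 1 factor per library, and 100% of values were whole multiples of 1 read (tolerance 0.01). The authors also deposited lists of up-regulated and down-regulated genes giving symbols, FDR, fold changes and group means of FPKM. The symbols served to name genes, the FPKM as the authors' means only, and their FDR and fold changes were not used.

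Members were taken by the rule described above. Differences are of mean log2(scaled count + 1), and standard errors are from limma-trend over 15970 genes kept by edgeR's filterByExpr, two-sided with Benjamini-Hochberg adjustment. This fit was planned for scaled counts, and edgeR, DESeq2 and limma-voom were run on recovered reads. Counting errors of a gap are the Poisson errors of its 2 values and cover counting error only. The labels name separate specimens, and the p-values weigh the group difference against the spread between them. In limma-trend that spread, and so the standard errors, are moderated across genes. limma-trend and the edgeR test were tested on simulated data.

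Genes given with all 6 values are the 4 members of each list with the largest gap, the 10 with the largest difference, gap and mean FPKM, the 3 on either side of each threshold, and others of the lists. Members, gene lists and marker lists were chosen with earlier results of these data known. Alternatives were 3 other scalings, other floors and pseudocounts, other filters and each library left out in turn. Promoters were matched by symbol in RefSeq (GRCm38.p6), and 167 of 168 members had a symbol there, 3 of them an older one. Coordinates of that build are not those of the files. Some genes that this rule would name are not reported here.

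Python 3.11.15 with numpy 2.4.6 and pandas 2.3.3 was used for values and figures (matplotlib 3.10.9), and DESeq2 1.42.0, edgeR 4.0.16 and limma 3.58.1 were run in R 4.3.3.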

Additional observations from a re-analysis of the deposited data

How the results depend on the processing

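The rule gave 168 genes as described, 170, 161 and 163 under scaling by total counts, upper quartile and median ratio (123, 150 and 154 of them shared with the 168), and 181, 146 and 185 with a floor of 10, of 50 and none. With each library left out in turn it gave 192 to 670, the most without specimen 10 (670) and then without specimen 13 (363), and all 168 were retained because fewer values have to be separated. The median log2 difference of the 168 genes lay between 0.31 and 0.43 under the other scalings and pseudocounts and with each library left out, and it was not computed for the other floors. Genes with an unadjusted p under 0.05 over the whole table numbered 376 as reported, 726 with no filter beyond 1 read and 799 in DESeq2, and 175 to 2544 with a library left out. The 2544 came without specimen 10 and were 1147 lower and 1397 higher, with 1 gene past an adjusted p of 0.05 in limma-trend. Under scaling by total counts the median log2 difference of all 13763 genes was 0.08, against 0.00 as reported. No paired analysis was possible because the specimen numbers are not shared between the groups. The gap was larger than 1 counting standard error in 46 of the 168 genes, and depth was not varied.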
